A study of Mus musculus with 3 samples.

Results

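CD4 T cells and B220 B cells, the helper and the antibody-producing arms of the splenic lymphocyte pool, were compared by the messenger RNA signal of 18193 genes, with 1 microarray for each cell type. The comparison took 2 of the 3 arrays of the study and every gene that had a probe set assigned to it alone. The rule that set the genes compared used no measured difference, while the genes named in the text were taken mostly for the size of theirs. Of the 18193 genes, 11274 were measured, meaning that the T cell or the B cell array gave a signal above the detection level. Both lymphocyte populations came from C57BL/6 mice aged 6 to 8 weeks, and their labels give a purity above 98% after sorting on magnetic beads. Neither the T cells nor the B cells were cultured or treated, and their RNA was taken at once after harvest. The remaining array holds embryonic stem (ES) cells of the C57BL/6 line B6N-22, grown on inactivated fibroblast feeders with leukemia inhibitory factor, and serves here as a level outside both lineages. The labels do not say how many mice gave the cells of an array.

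T and B cells arise from a common lymphoid progenitor and build their receptors by the same gene rearrangement, but they commit to separate programmes of transcription factors in the thymus and the bone marrow. A T cell reads peptide on MHC molecules through the T cell receptor and CD3 chains, and signals through the kinases Lck and ZAP-70 and the scaffold LAT. A B cell reads intact antigen through surface immunoglobulin with CD79 chains, signals through Lyn, Syk, Btk and the linker BLNK, and presents peptide on MHC class II to CD4 T cells.

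Signals are on the linear scale of the deposited table, and they are given throughout for the T cell, B cell and ES cell arrays. A signal of 95, the median of all values, was taken as the detection level. A value below it was raised to it before log2 was taken, so a fold against such an array is a lower bound, written "at least". Because each cell type has 1 array, there was no error between animals, no test was run, and every difference describes this pair of arrays. In RNA of whole populations, fewer cells of a type and less RNA per cell cannot be told apart. The arrays were alike in overall signal, with trimmed means of 498 for T cells, 498 for B cells and 497 for ES cells, and 56.9%, 58.2% and 59.1% of genes above the detection level.

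Most genes had like signals in the lymphocyte arrays: 84.8% of the measured genes lay within 2-fold, and the median log2 difference, T cells minus B cells, was -0.05. At least 4-fold higher signals in T cells were seen for 284 genes, 2.52% of those measured, and at least 4-fold lower signals for 207 genes, 1.84%. Of the 284, 116 had a B cell signal below the detection level, and of the 207, 37 had a T cell signal below it. The next brightest measured probe set, which 163 of the 284 genes had, was at least 4-fold higher as well for 89 and at least 2-fold for 140. For the lower genes these numbers were 60 and 79 of 90, and by this probe set 0 genes differed by 2-fold in the opposite direction. The brightest pair of measured probe sets of a gene disagreed by a median of 0.301 on the log2 scale over 5361 genes. From these disagreements, the SD of the log2 difference of a single probe set was put at 0.399. Both figures cover probes and not animals.

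**Figure D1:**
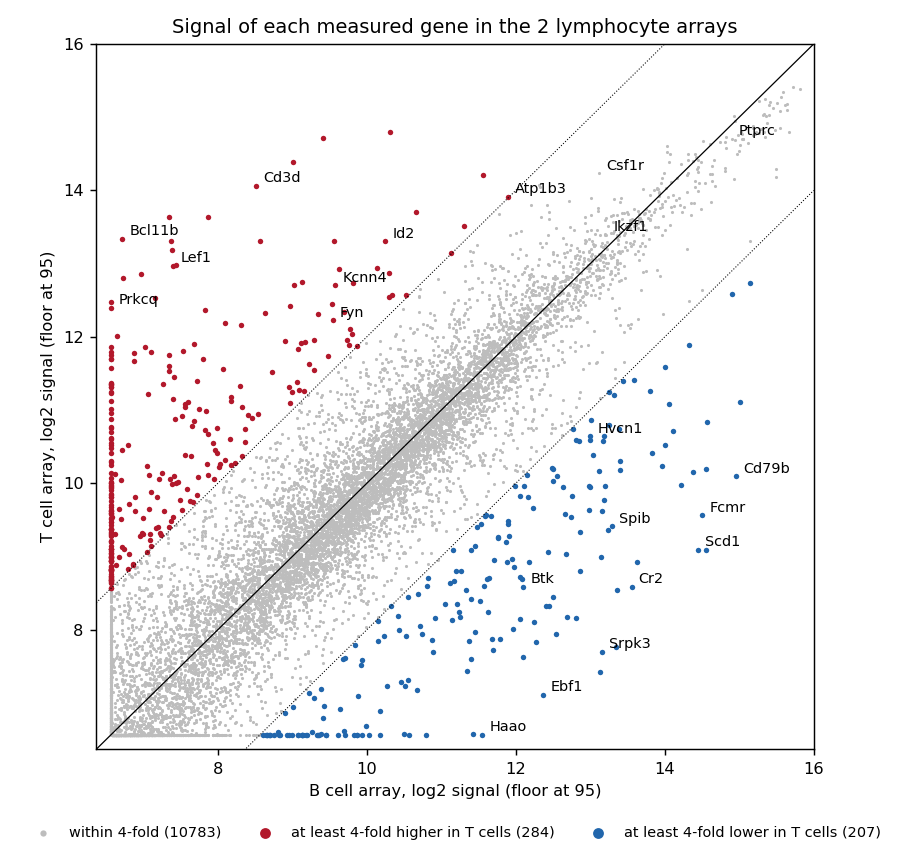
The log2 signal of each measured gene is plotted for the B cell array (horizontal) and the T cell array (vertical), with signals below 95 set to that level. Each point is a gene, the solid line marks equal signal and the dotted lines mark a 4-fold difference, beyond which 284 genes lie on the T cell side and 207 on the B cell side.

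The labels were checked against defining markers of each cell type. All 12 measured T cell markers were higher in the T cell array by 4-fold or more, and all 13 B cell markers were lower by as much. In the B cell array the T cell markers stood at 0.395% to 5.26% of their T cell signal (median 1.55%). In the T cell array the B cell markers stood at 2.10% to 14.6% of their B cell signal (median 4.49%). These percents use the deposited signals, also below the detection level. Only 8 of the 12 T cell markers were above it in B cells, and 12 of the 13 B cell markers in T cells. The 0.395% of Cd6 (14.1 in B cells) and the 14.6% of Pax5 (85.2 in T cells) rest on signals below it. Markers of macrophages and monocytes were present on both arrays and higher on the T cell array for 14 of 15 genes. Their signals summed to 77570, 32159 and 5625 in T, B and ES cells, a ratio of T cells to B cells of 2.41, and 0 of them differed by 4-fold. For example, Csf1r, on which macrophage survival depends, had signals of 19275, 8930 and 209, while Itgam, the integrin chain of CD11b, was at 94.5 and 101 in T and B cells, next to the detection level. The 7 measured dendritic cell markers were all higher in T cells, around a median of 1.38 on the log2 scale, those of CD8 and NK cells had a median of 0.83, and those of plasma cells one of -1.08. Summed marker signals in T and B cells were 6798 and 2146 for dendritic cells, 10486 and 5319 for CD8 and NK cells, 14098 and 7129 for neutrophils, 943 and 1540 for platelets, 653 and 501 for erythroid cells, and 20181 and 41277 for plasma cells. The macrophage and monocyte markers that were higher in T cells lay at log2 differences of 1.07 to 1.73. Of all measured genes, 4.74% fell in that band, against 16.7% of the receptors (58 of 348) and 5.38% to 7.12% of the other classes described below. The markers that set the band were not taken out of these counts. Any of them in a class list therefore lies in the band by definition. The part of these other cells in the differences was not tested.

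**Figure D2:**
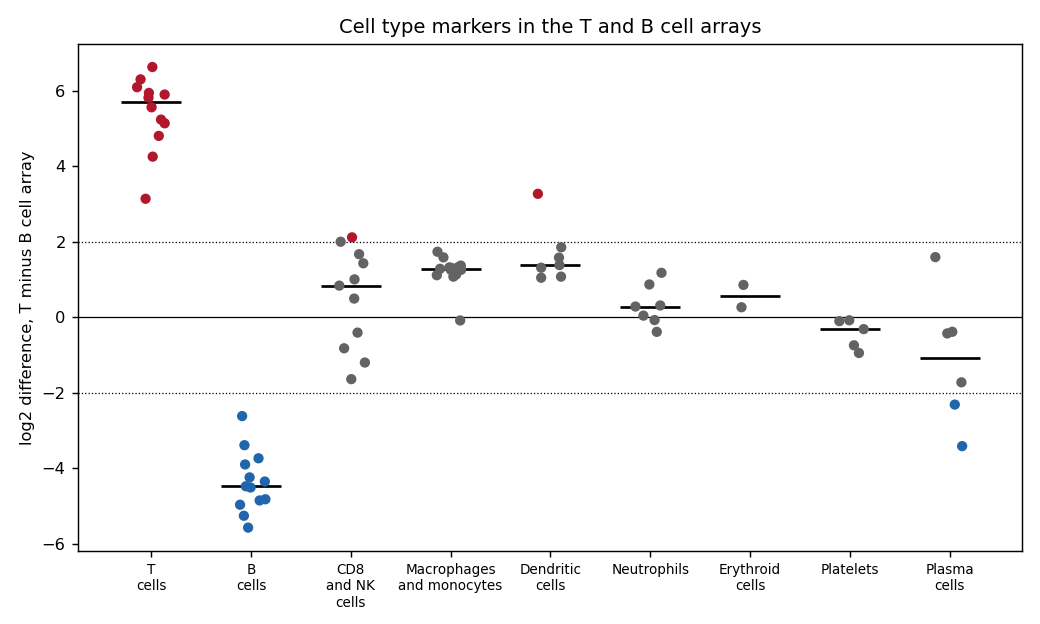
Points are measured marker genes of 9 cell types and give the log2 difference, T cell array minus B cell array, with the median of each list as a bar and 4-fold as dotted lines. T and B cell markers lie apart on either side of 4-fold, and 14 of 15 macrophage and monocyte markers lie between 1.07 and 1.73.

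Transcription factors were split almost evenly between the cell types. Of 327 measured factors, from 495 on the array, 13 (3.98%) were higher in T cells by 4-fold or more and 15 (4.59%) lower by as much, and their median log2 difference was -0.04. The shares of all measured genes, 2.52% and 1.84%, are the background for this and every class and list below. Bcl11b, the zinc finger factor that commits thymocytes to the T lineage, had signals of 10349, 105 and 118, a 98.6-fold difference between T and B cells. It was the farthest apart of all transcription factors in the lists. Its relative Bcl11a, which early B cells need, was at 790, 9180 and 23.8, 11.6-fold lower in T cells. The pair thus traded places between the arrays, and both were near or below the detection level in ES cells.

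HMG-box and Tox factors had 3 of 9 measured members (33.3%) on the T cell side and 0 on the B cell side, the greatest T cell share among the transcription factor lists. Lef1, a partner of beta-catenin that acts beside TCF-1 in thymocytes, was at 8014, 169 and 618 (47.5-fold higher). Tox, which CD4 T cell development requires, was at 1661, 61.1 and 4.2 (at least 17.5-fold higher), and Tox2 at 2242, 291 and 164 (7.71-fold, by its single measured probe set). Of the Ikaros family, Ikzf2 (Helios), known from regulatory T cells, was at 5684, 71.7 and 114 (at least 59.8-fold higher), and Ikzf4 (Eos) at 663, 37.3 and 119 (at least 6.98-fold). Ikzf1 (Ikaros) itself, which all lymphocytes need, was at 10765, 9518 and 4.7 and so was alike in the lymphocytes. The B cell signals of Tox, Ikzf2 and Ikzf4 were below the detection level.

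The other 7 factors higher in T cells came from several families. In the forkhead list 0 of 17 measured members, and in that of T-box, Mef2, Myb, E2f and Rfx factors 0 of 38, were higher by 4-fold or more. Gata3, needed for CD4 commitment and type 2 helper cells, was at 1257, 9.8 and 44.0 (at least 13.2-fold higher). Rora, an orphan nuclear receptor, was at 1028, 11.9 and 155 (at least 10.8-fold, its probe sets running from 1.19 to 3.44), and Maf, a driver of interleukin genes, at 6836, 898 and 194 (7.62-fold). Nr4a3, a nuclear receptor induced early by receptor signals, was at 771, 86.2 and 14 (at least 8.11-fold, and under 4-fold where the 65th percentile was the detection level). Id2, which blocks E proteins, was at 10108 in T cells, against 1218 in B cells and 1190 in ES cells (8.30-fold), but its measured probe sets ran from 0.80 to 3.05 on the log2 scale. Smad7, the inhibitory Smad of TGF-beta signalling, was at 2796, 171 and 315 (16.4-fold), and its probe sets ran from 0.94 to 4.03. Epas1, the hypoxia-inducible factor HIF-2 alpha, had its highest signal outside both lymphocytes, at 428, 5.8 and 2616 (at least 4.51-fold higher in T than in B cells).

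Of the 15 factors lower in T cells, 5 were of the 25 measured Pou, Pax, Ebf, homeobox and Satb factors (20.0%). Ebf1, which opens the B lineage programme, was at 138, 5291 and 94.6 (38.3-fold lower in T cells), with probe sets from -5.26 to -0.41. Pax5, which holds B cell identity, was at 85.2, 584 and 76.2 (at least 6.15-fold lower), with a further probe set at -0.89. Spib, an Ets factor, was at 683, 9988 and 64.1 (14.6-fold lower), and Mef2c, a MADS-box factor of B cell survival, at 320, 5563 and 36.7 (17.4-fold). Pou2af1 (OBF-1), the coactivator of octamer-binding factors, was at 1473, 16470 and 25.9 (11.2-fold), and Pou2f2 (Oct-2), its partner, at 141, 599 and 68.3 (4.25-fold). All of these were below the detection level in ES cells. Pax5 and Pou2f2 no longer reached 4-fold once the 65th percentile of all values was taken as the detection level, or when every probe set had to pass.

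Lyl1, a bHLH factor of progenitors, was at 235, 3545 and 104 (15.1-fold lower in T cells), and Lmo2, its LIM-domain partner protein, at 644, 7428 and 99.5 (11.5-fold). Hhex, a homeobox factor, was at 536, 5553 and 324 (10.4-fold), and Hes1, a repressor downstream of Notch, at 150, 1234 and 668 (8.21-fold). Tcf4 (E2-2), an E protein, was at 1045, 5797 and 1139, 5.55-fold lower in T cells and no higher in T cells than in ES cells. Irf5 (5.56-fold) and Irf4 (4.98-fold) were lower in T cells as well, though a further Irf5 probe set gave 0.21 and a further Irf4 set -0.93. Of the factors within 25% between the lymphocytes, the 4 with the highest signals were Fos, Jun and Jund of AP-1, and Ikzf1. Fos was at 17943 and 21625 in T and B cells, Jun at 8921 and 7236, and Jund at 7191 and 6726.

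**Figure D3:**
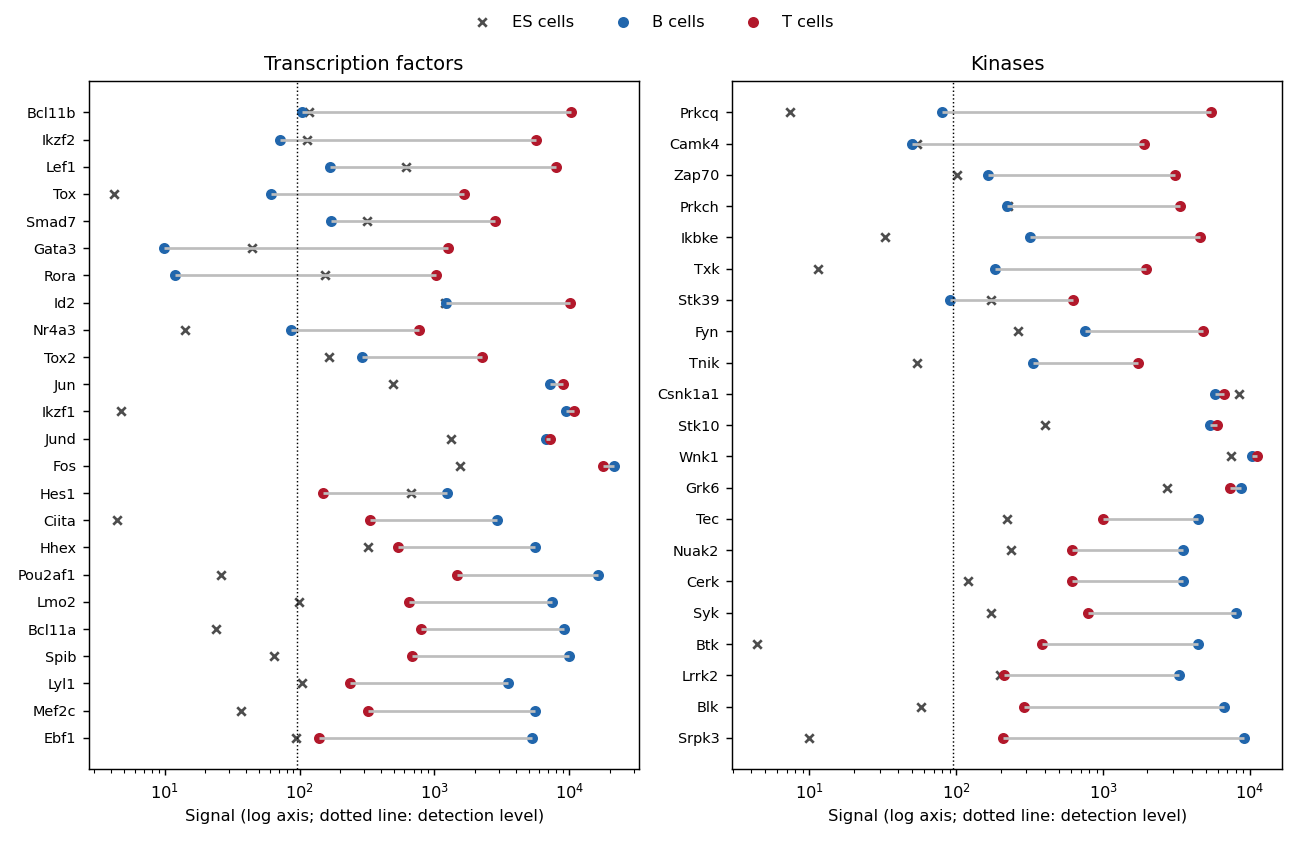
Deposited signals of the named transcription factors (left) and kinases (right) are shown on a log axis for T cells, B cells and ES cells, with the detection level of 95 dotted and a line joining the T and B cell values. The upper genes are higher in T cells, the lower ones in B cells, and the 4 in the middle of each panel lie within 25%.

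Of the large classes as listed here, receptors had the greatest shares of genes past 4-fold. Their lists include antigen receptor chains and other lineage markers, whose direction was known beforehand. They were also chosen with earlier results of these data known, so the shares are a description. Of 348 measured members of the receptor lists, from 560 on the array, which include the membrane ligands of the TNF and B7 families and innate sensors, 51 (14.7%) were higher in T cells by 4-fold or more and 28 (8.05%) lower by as much. All measured genes had 2.52% and 1.84%. The median log2 difference of the receptors was 0.27, and 123 were at least 2-fold higher against 48 lower. Among the receptor lists, those of the antigen receptors had the greatest shares. Of 7 measured T cell receptor and coreceptor chains 6 were higher in T cells, and of 4 B cell receptor signalling chains 3 were lower. Cd3g, of the CD3 signalling complex, was at 12798, 163 and 22.4 (78.6-fold higher), Cd3d at 17144, 364 and 6.3 (47.1-fold), and Cd3e at 3332, 28.6 and 34.9 (at least 35.1-fold). Cd247, the zeta chain, was at 7431, 125 and 66.7 (59.5-fold), although its 4 measured probe sets ran from -0.06 to 5.89. Cd4, the MHC class II coreceptor on which the T cells were sorted, was at 834, 19.7 and 11 (at least 8.78-fold). The CD8 chains gave unlike answers: Cd8b1 was at 716 and 166 (4.32-fold higher) and Cd8a at 145 and 193. On the B cell side, Cd79b, which signals for surface immunoglobulin, was at 1096, 31707 and 46.5 (28.9-fold lower in T cells), and Cd79a at 197, 4394 and 41.2 (22.3-fold). Vpreb3, a chaperone-like protein of immunoglobulin assembly, was at 194, 2696 and 57.0 (13.9-fold).

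Costimulatory and inhibitory receptors of the immunoglobulin family held 12 of 47 measured members (25.5%) on the T cell side and 6 (12.8%) on the B cell side. Cd28, the main costimulatory receptor of T cells, was at 9365, 167 and 15.5 (56.2-fold higher), Icos at 4136, 100 and 45.1 (41.2-fold), and Ctla4, their inhibitory relative, at 3438, 162 and 16.3 (21.2-fold). Pdcd1 (PD-1), an inhibitory receptor of activated T cells, was at 982, 8.6 and 24.3 (at least 10.3-fold). Thy1, a surface marker of mouse T cells, was at 7185, 106 and 1180 (68.0-fold), so that ES cells stood between the lymphocytes. Cd5, which dampens receptor signals, was at 10177, 166 and 40.0 (61.2-fold). Its relative Cd6 was at 3565, 14.1 and 15.5 (at least 37.5-fold), and Cd96, an adhesion receptor of T and NK cells, at 3062, 84.2 and 10.2 (at least 32.2-fold). In the reverse direction, Cd22 and Siglecg, inhibitory lectins of the B cell receptor, were at 1008, 19107 and 107 (18.9-fold lower) and at 286, 7210 and 97.7 (25.3-fold lower). Cd72, an inhibitory C-type lectin, was 9.29-fold lower and Cd24a, the heat-stable antigen, 13.3-fold lower, the last with 1534 in ES cells.

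Fc, Fc-like and complement receptors lay mostly on the B cell side, with 7 of 16 measured members (43.8%) lower in T cells by 4-fold or more and 0 higher; at 2-fold, 9 were lower and 4 higher. Fcer2a (CD23), the low-affinity IgE receptor, was at 219, 10414 and 109 (47.6-fold lower), the greatest difference of any receptor in that direction. Cr2 (CD21), the complement receptor of the B cell coreceptor, was at 384, 12032 and 42.3 (31.3-fold), and Fcmr, the IgM Fc receptor, at 756, 23211 and 60.2 (30.7-fold). Fcgr2b, the inhibitory IgG receptor, was at 512, 9062 and 62.7 (17.7-fold), and Fcrla, an intracellular Fc receptor-like protein, at 245, 5963 and 47.3 (24.3-fold, with probe sets from -4.60 to -1.85). Fcrl1 was 14.6-fold and Cd55, a complement regulator, 8.13-fold lower in T cells.

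Cytokine and growth factor receptors were the reverse, with 9 of 53 measured members (17%) higher in T cells by 4-fold or more and 0 lower. Il7r, the receptor chain for the survival cytokine of resting T cells, was at 12791, 233 and 49.9 (54.8-fold higher). Il18r1 was at 3521, 118 and 6.2 (29.9-fold) and its partner chain Il18rap at 639, 127 and 27 (5.04-fold). Of the interleukin-2 receptor chains, Il2rb was at 1133, 77.6 and 8.5 (at least 11.9-fold higher) and Il2ra at 468, 39.8 and 3.8 (at least 4.92-fold). Il6ra (6.90-fold) and Il6st (8.85-fold), which form the interleukin-6 receptor, were higher together, with probe sets of Il6st from 0.05 to 3.15. Tgfbr3 and Igf1r were at least 21.9-fold and at least 9.52-fold higher, whereas Tgfbr2, the signalling TGF-beta receptor, was alike at 8467 and 8968.

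TNF receptors and their ligands differed in both directions. Of 17 measured receptors, 4 were higher and 3 lower in T cells. Cd27, a costimulatory receptor, was at 3467, 92.2 and 25.5 (at least 36.5-fold higher), Tnfrsf25 (DR3) at 1560, 74.5 and 67.3 (at least 16.4-fold), and Tnfrsf4 (OX40) at 2188, 503 and 246 (4.35-fold). Tnfrsf13c, the BAFF receptor on which B cell survival depends, was at 372, 10527 and 50.1 (28.3-fold lower in T cells). Cd40, through which helper T cells reach B cells, was at 284, 4266 and 112 (15-fold lower), and Tnfrsf13b (TACI) 6.00-fold lower. Among 15 measured ligands, 5 were higher in T cells, among them Tnfsf11 (RANKL, at least 11.3-fold), Fasl (7.79-fold) and Tnfsf8 (CD30 ligand, 6.44-fold). The ligand lower in T cells was Icosl, the partner of Icos, at 292, 1369 and 156 (4.69-fold lower). Ltb, lymphotoxin beta, was within 25% at 20564 and 25488.

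Homing receptors differed in both directions, with 6 of 30 measured chemokine and lipid receptors (20.0%) higher and 6 lower in T cells. Cxcr6 was at 3272, 118 and 135 (27.8-fold higher), Ccr9, a gut and thymus homing receptor that plasmacytoid dendritic cells also carry, at 2075, 216 and 5.1 (9.61-fold), and Cxcr3, the receptor of type 1 helper cells, at 3645, 539 and 65.2 (6.76-fold). Cxcr5, which guides cells into B cell follicles, was at 993, 6351 and 44.9 (6.40-fold lower in T cells), Ccr6 at 416, 4329 and 95.2 (10.4-fold lower), and S1pr3, a receptor of sphingosine phosphate, at 251, 2809 and 1244 (11.2-fold lower). Cnr2, the cannabinoid receptor of immune cells, was 7.27-fold lower. Ccr7, which leads both cell types into lymphoid tissue, was at 7342 and 4620, a log2 difference of 0.67. Outside the chemokine family, F2r, a thrombin receptor, was at 2623 in T cells, 74.3 in B cells and 7452 in ES cells. Integrins and other adhesion receptors had 3 of 30 on the T cell side, Itgb8 (at least 7.30-fold), Itga6 (5.25-fold) and Itgae (at least 4.73-fold), and 0 on the B cell side. Cd53 and Cd47 were within 25%, at 16178 and 20163 and at 8287 and 9207.

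**Figure D4:**
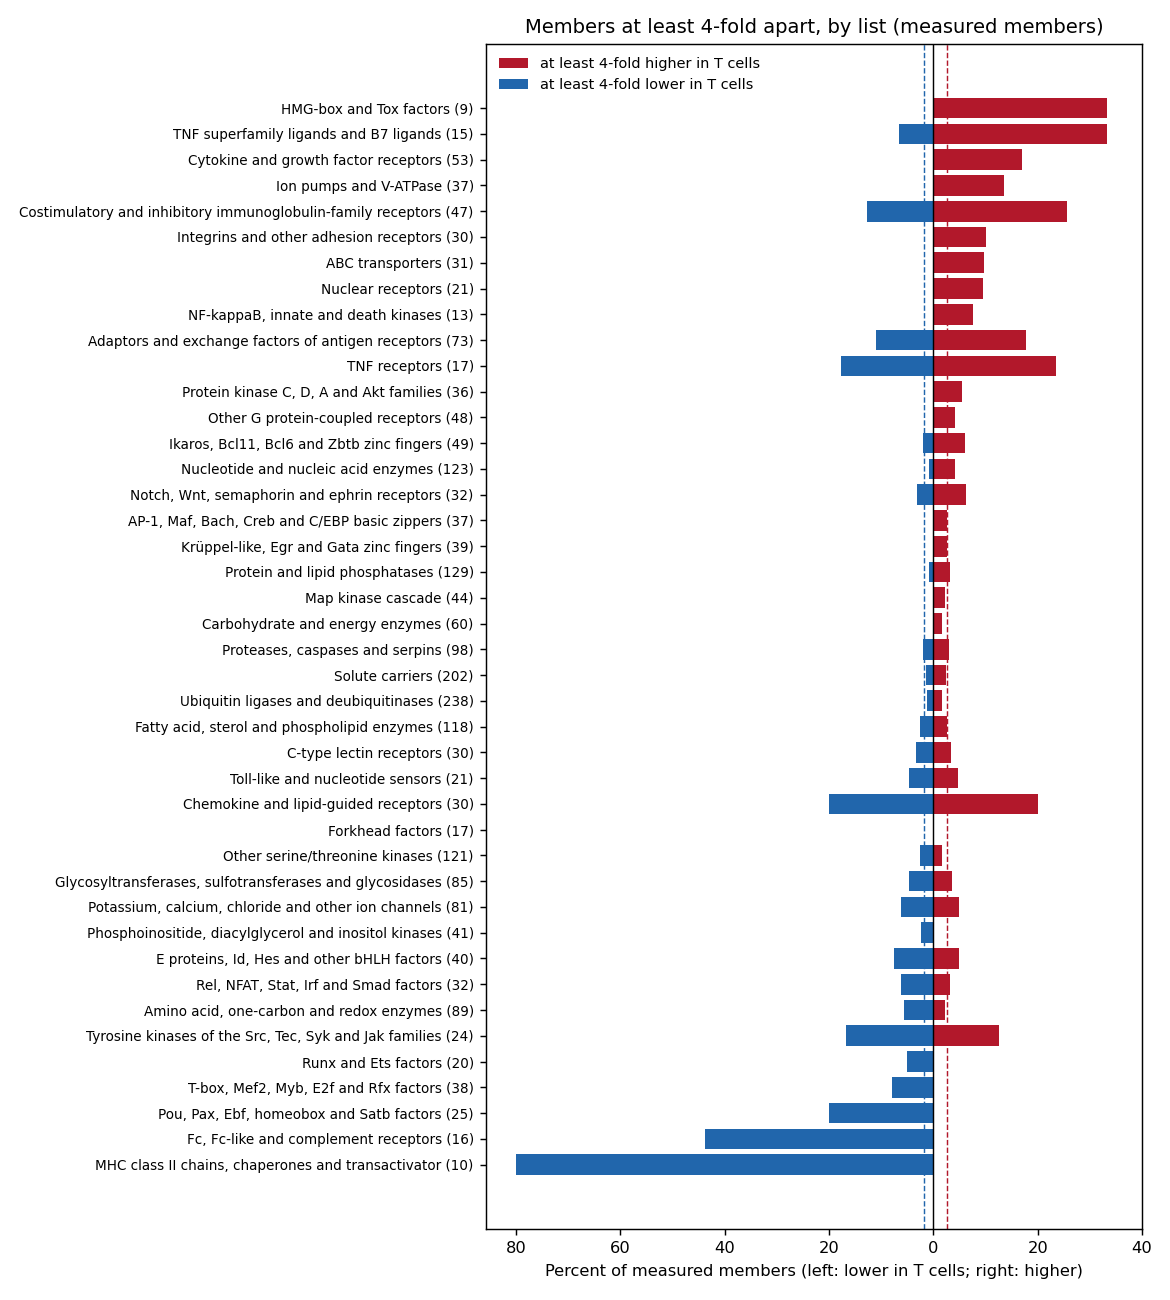
Bars give the percent of measured members of each gene list that were at least 4-fold lower (left) or higher (right) in T cells, with the number of measured members in brackets; the lists of T and B cell receptor chains and of markers are not drawn. Dashed lines mark the shares of all measured genes, 1.84% and 2.52%, and the MHC class II list reaches 80.0% on the left.

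Promoters of receptor genes are shown so that short sequence motifs, recognised by factors of the lists above, can be seen beside the values. The factor of a motif need not differ itself: of 20 measured Runx and Ets factors, 0 were higher and 1 lower in T cells by 4-fold or more. Windows are the 250 bases before the gene start in RefSeq's GRCm38.p6 assembly, written along the gene's strand, with the matched letters in capitals. The motifs searched on both strands were ATTTGCAT (octamer, for Pou factors), CCCNNGGG (EBF), TGTGGTT (RUNX), CTTTGAT (TCF and LEF) and CAGCTG (E-box). For each motif the window shown belongs to the transcription factor or receptor gene with the greatest difference that held a match, taken from the B cell side for the octamer and EBF, the T cell side for RUNX and TCF and LEF, and either side for the E-box. Genes on 1 chromosome and genes already shown for an earlier motif were passed over. Only the first window of a gene was searched for this choice. Each window held 1 match, and no match overlapped another motif. Vpreb3 lies on the plus strand at chr10:75948050-75948299, with the octamer starting at position -45 from the gene start. Cd22 lies on the minus strand at chr7:30879029-30879278, with the EBF letters at -48. Cd96 lies on the minus strand at chr16:46120249-46120498, with the RUNX letters at -29 on the opposite strand, so that they read AACCACA. Cd3d lies on the plus strand at chr9:44981536-44981785, with the TCF and LEF letters at -55, read as ATCAAAG from the opposite strand. Fcmr lies on the plus strand at chr1:130865527-130865776, with the E-box at -176.
Vpreb3: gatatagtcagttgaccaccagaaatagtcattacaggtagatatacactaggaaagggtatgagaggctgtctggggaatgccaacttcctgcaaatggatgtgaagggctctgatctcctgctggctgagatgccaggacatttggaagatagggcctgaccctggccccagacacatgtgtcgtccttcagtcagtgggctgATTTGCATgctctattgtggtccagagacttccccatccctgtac
Cd22: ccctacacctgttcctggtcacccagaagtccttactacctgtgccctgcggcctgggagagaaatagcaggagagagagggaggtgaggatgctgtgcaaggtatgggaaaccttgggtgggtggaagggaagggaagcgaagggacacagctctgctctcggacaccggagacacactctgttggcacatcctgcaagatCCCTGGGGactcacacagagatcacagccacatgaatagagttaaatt
Cd96: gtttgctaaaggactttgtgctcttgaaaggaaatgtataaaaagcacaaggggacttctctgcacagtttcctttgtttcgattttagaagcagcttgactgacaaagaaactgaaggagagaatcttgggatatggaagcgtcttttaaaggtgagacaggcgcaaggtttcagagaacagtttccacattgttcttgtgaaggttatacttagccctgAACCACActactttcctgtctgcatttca
Cd3d: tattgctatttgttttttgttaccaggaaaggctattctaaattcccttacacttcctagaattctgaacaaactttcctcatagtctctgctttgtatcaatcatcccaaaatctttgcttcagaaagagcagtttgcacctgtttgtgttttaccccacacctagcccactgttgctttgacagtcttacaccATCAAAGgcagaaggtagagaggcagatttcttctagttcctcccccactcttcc
Fcmr: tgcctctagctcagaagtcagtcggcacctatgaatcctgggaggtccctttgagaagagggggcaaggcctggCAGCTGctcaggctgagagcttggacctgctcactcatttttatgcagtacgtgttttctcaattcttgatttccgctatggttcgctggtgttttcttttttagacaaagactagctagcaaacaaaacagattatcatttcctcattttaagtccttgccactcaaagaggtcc

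These letters were not rare, and a match describes the window without showing that a factor binds. The octamer was in 1.60% of all 32851 windows, in 1.23% of the 9154 measured genes matched by symbol, in 4.49% (7 of 156) of the matched genes lower in T cells and in 2.34% (5 of 214) of those higher. The EBF letters were in 11.8% of all windows and in 15.3%, 15.4% and 17.8% of the measured, lower and higher genes. In the same order, the RUNX letters were in 4.40%, 3.16%, 5.13% and 3.74%, the TCF and LEF letters in 3.21%, 2.31%, 3.21% and 3.74%, and the E-box in 13%, 11.2%, 13.5% and 14.5%.

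Kinases as a class were close to all measured genes. Of 279 measured kinases, from 332 on the array, 9 (3.23%) were higher in T cells by 4-fold or more and 8 (2.87%) lower by as much, against 2.52% and 1.84% of all measured genes, around a median of -0.11 on the log2 scale. Prkcq, the protein kinase C theta of the T cell synapse, was at 5409, 79.6 and 7.4 (at least 56.9-fold higher), and Prkch, another isoform of the family, at 3312, 222 and 226 (14.9-fold). Prkcb, the isoform of B cell receptor signalling, was at 4273, 11210 and 50.6, a log2 difference of -1.39. Of 24 measured tyrosine kinases of the Src, Tec, Syk and Jak families, 3 were on the T cell side and 4 on the B cell side. Zap70, which binds the CD3 and zeta chains, was at 3100, 163 and 102 (19-fold higher), although its 3 measured probe sets ran from -0.97 to 4.25. Txk, a Tec family kinase of T cells, was at 1940, 183 and 11.4 (10.6-fold), and Fyn, a Src family kinase, at 4796, 747 and 261 (6.42-fold). Syk, the relative of Zap70, was at 793, 8071 and 172 (10.2-fold lower in T cells). Blk, a Src family kinase of B cells, was at 290, 6616 and 57.0 (22.8-fold lower), Btk, whose loss stops B cell development in humans, at 385, 4402 and 4.4 (11.4-fold lower), and Tec at 1003, 4411 and 220 (4.40-fold lower). Lck and Lyn were not analysed here.

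The other kinases were of mixed function. Camk4, a calcium and calmodulin kinase, was at 1890, 49.5 and 54.3 (at least 19.9-fold higher), with probe sets from 0.75 to 4.31. Ikbke, an innate kinase of the NF-kappaB and interferon pathways, was at 4577, 318 and 32.5 (14.4-fold higher), and Tnik at 1713, 330 and 53.9 (5.19-fold). Stk39, a regulator of cation and chloride transport, was at least 6.58-fold higher, with a probe set at 0.17. Srpk3, a kinase of SR splicing proteins known from muscle, gave the greatest B cell difference of any kinase, at 207, 9122 and 10 (44.0-fold lower in T cells). Lrrk2, the kinase mutated in familial Parkinson disease, was at 211, 3303 and 198 (15.7-fold lower), and Cerk, which phosphorylates ceramide, and Nuak2 were each 5.66-fold lower. Wnk1, Grk6, Csnk1a1 and Stk10 were within 25%, for example Wnk1 at 11211 and 10219. By the median over its probe sets, the log2 difference of Wnk1 was 0.68.

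The next class joined adaptors and exchange factors of the antigen receptor pathways with protein and lipid phosphatases of any pathway. It too had members that differed in both directions. Of 202 measured members, from 242 on the array, 17 (8.42%) were higher and 9 (4.46%) lower in T cells by 4-fold or more, and 21 of these 26 were among the 73 measured adaptors and exchange factors of antigen receptors. Over all measured genes the shares were 2.52% and 1.84%. Of the 129 measured protein and lipid phosphatases, 4 (3.10%) were higher and 1 (0.78%) lower, near and below those shares. Lat, the scaffold that ZAP-70 phosphorylates, was at 10109, 378 and 156 (26.8-fold higher), and its B cell relative Lat2 at 258, 4007 and 49.7 (15.5-fold lower). Lcp2 (SLP-76) was at 5470, 504 and 38.5 (10.9-fold higher) and Blnk, the matching linker in B cells, at 1202, 16037 and 316 (13.3-fold lower). Plcg1 and Plcg2, the phospholipases that each linker recruits, were at 3991, 624 and 1178 (6.39-fold higher) and at 906, 6930 and 878 (7.65-fold lower). At all 3 steps 1 family member was thus higher in T cells and the other in B cells.

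Further T cell adaptors were Trat1, a transmembrane adaptor of the receptor complex, at 2644, 31.2 and 2.6 (at least 27.8-fold higher), Sh2d1a (SAP), the adaptor of SLAM receptors, at 2557, 59.8 and 1.8 (at least 26.9-fold), and Skap1 at 5286, 228 and 33.0 (23.2-fold). Fyb (ADAP), which links the receptor to integrins, was at 10151, 755 and 15.3 (13.4-fold), Themis, needed for thymocyte selection, at least 15.1-fold (probe sets from 1.83 to 3.92) and Tiam1, a Rac exchange factor, at least 15.8-fold higher. Among phosphatases and related proteins, Ppm1h was at 4655, 275 and 157 (16.9-fold) and Ubash3a, a negative regulator of T cell receptor signals, at 1057, 104 and 82.0 (10.2-fold). On the B cell side, Rasgrp3, a Ras exchange factor, was at 229, 4934 and 43.1 (21.6-fold lower in T cells), and Bank1, a scaffold of B cell receptor signals, at 1682, 17652 and 51.6 (10.5-fold). Dok3 (8.07-fold), Sh3bp2 (6.88-fold) and Pik3ap1 (BCAP, 4.06-fold, and under 4-fold when arrays were scaled to a common median) were lower in T cells too, and Ptpn14 at least 7.39-fold lower with a probe set at -0.20. Ptprc (CD45), the phosphatase on all leukocytes, was within 25% at 26728 and 30603.

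Counterpart pairs, the T cell and B cell members of a protein family or pathway step, were set side by side from a list of 28 pairs, of which 22 had both members on the array. Their expected direction is textbook knowledge, so the counts describe the arrays and are no independent evidence. In 9 pairs both members were at least 4-fold apart in opposite directions, in 5 only the T cell member and in 4 only the B cell member passed 4-fold, and in 4 neither did. The median separation between the members' log2 differences was 5.57. It was widest for Cd3g and Cd79b (11.15), Il7r and Tnfrsf13c (10.60) and Bcl11b and Bcl11a (10.16). One-sided pairs were also seen: Rasgrp1 was at 7131 in T cells and 3346 in B cells while Rasgrp3 was lower in T cells, and Skap2 was at 1666 and 2293 while Skap1 was higher. Grap2 (GADS), the T cell adaptor, was at 241 against 353 in B cells, and Grap at 2083 and 3980, so that both were below 0 on the log2 scale. Pik3r5, a regulatory subunit of PI3K gamma put on the B cell side of its pair, was at 1504 against 435 in B cells, and Pik3r1 at 2642 and 1490.

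**Figure D5:**
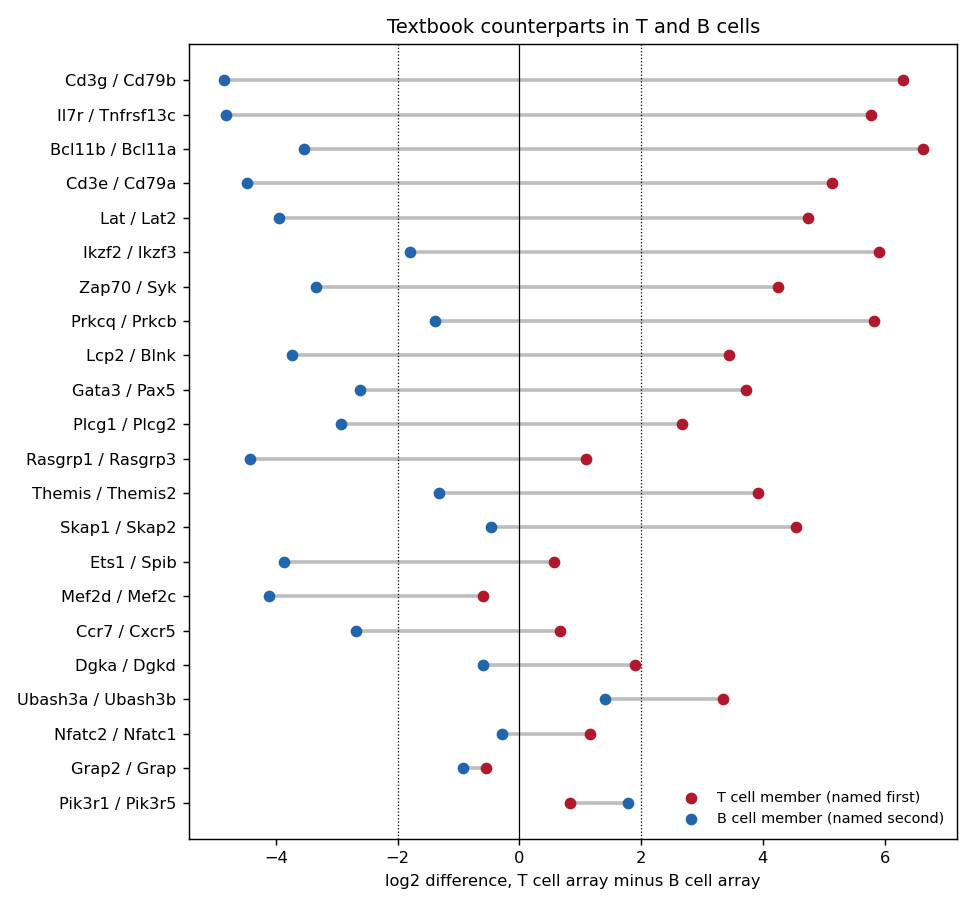
Each row is 1 of the 22 counterpart pairs, ordered by separation, with the log2 difference (T cell array minus B cell array) of the T cell member in red and of the B cell member in blue. Dotted lines mark 4-fold; 9 pairs reach beyond them on both sides, and Pik3r1 and Pik3r5 lie in the reverse order.

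MHC class II genes, whose products present peptide to CD4 T cells, were, among the family lists, the one with the greatest share on the B cell side. All 10 measured members were lower in T cells by 2-fold or more and 8 of them by 4-fold or more, around a median of -2.67 on the log2 scale. H2-DMb2, a chain of the peptide-loading chaperone, was at 1136, 21318 and 2.6 (18.8-fold lower). H2-Oa and H2-Ob, the chains of its inhibitor, were at 1003, 9404 and 63.6 (9.37-fold) and at 2170, 17018 and 10 (7.84-fold). Ciita, the transactivator of the class, was at 335, 2931 and 4.4 (8.75-fold, with probe sets from -3.13 to -1.43). The classical chains were closer: H2-Ab1 was at 6819, 36257 and 66.2 (5.32-fold lower), H2-Eb1 at 10192, 36268 and 269 (3.56-fold) and H2-Aa at 18638, 46174 and 2.5 (2.48-fold). Across the 10 genes the T cell signal was 5.33% to 40.4% of the B cell signal (median 15.7%), against a median of 4.49% for the B cell markers. Macrophage and dendritic cell markers were higher in the same T cell array, as given above, and their part in these signals was not tested. Marchf1, the ubiquitin ligase that removes MHC class II from the surface, was at 488, 3790 and 4.8 (7.76-fold lower in T cells).

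Enzymes were near the background. Of 811 measured, from 1260 on the array, 21 (2.59%) were higher and 18 (2.22%) lower in T cells by 4-fold or more, against 2.52% and 1.84% of all measured genes, and their median log2 difference was 0.01. Serpinb1a, an inhibitor of neutrophil-type serine proteases listed with the proteases, was at 172, 8983 and 48.3 (52.2-fold lower in T cells). Scd1, the stearoyl-CoA desaturase that makes monounsaturated fatty acids, was at 545, 22258 and 1812 (40.9-fold lower), so that its T cell signal was also below that of ES cells. Cyp4f18, a cytochrome that inactivates leukotriene B4, was at 276, 4874 and 5.0 (17.7-fold lower).

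Haao, an enzyme of tryptophan breakdown through kynurenine, was at 93.2, 3002 and 20.3 (at least 31.6-fold lower). Of the same route, Kynu was at 121, 798 and 6.4 (6.59-fold), and Kmo at 447, 2353 and 33.5 (5.27-fold). Kynu and Kmo, whose route was not counted as a list, were named after their values were seen, as were Ncf1 and Cybb, subunits of the phagocyte NADPH oxidase that B cells also carry. Ncf1 was at 768, 6470 and 58.9 (8.42-fold lower), and Cybb at 2355, 10227 and 49.1 (4.34-fold). The 89 measured amino acid, one-carbon and redox enzymes as a list had 2 members on the T cell side and 5 on the B cell side, 72 were within 2-fold, and their median was 0.00.

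Glycosyltransferases, sulfotransferases and glycosidases had 3 of 85 measured members (3.53%) higher and 4 (4.71%) lower in T cells, a few genes from the 2.52% and 1.84% of all measured genes. St8sia1, the GD3 ganglioside synthase, was at 2440, 64.0 and 79.7 (at least 25.7-fold higher), but its 3 probe sets ran from 1.32 to 4.68 and their median of 1.78 was below 4-fold. B3gnt5, which starts the lacto-series glycolipids, was at 349, 5799 and 572 (16.6-fold lower), and B3gnt8 at least 9.53-fold lower, though under 4-fold with the higher detection level. Heparan sulfate sulfotransferases were divided: Hs3st3b1 was at 773, 71.1 and 146 (at least 8.14-fold higher, with a probe set at 0.03), and Hs3st1 at 119, 1154 and 111 (9.68-fold lower). Further enzymes on the T cell side were Nt5e (CD73), which makes adenosine from AMP, at 1888, 172 and 159 (11-fold, with a further probe set at 1.86), Rnf125, a ubiquitin ligase, at 2691, 211 and 702 (12.8-fold), and Adcy6, an adenylyl cyclase, at 1041, 51.3 and 276 (at least 11-fold). Pdk1 in this list is the pyruvate dehydrogenase kinase that restrains entry of pyruvate into mitochondria, and was at 7522, 1258 and 4132 (5.98-fold higher). The enzymes Akr1a1 (16193 and 15487), Tkt (13045 and 14398), Gpx1 (10169 and 12352) and Gstp1 (9220 and 8101) were within 25%.

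Transporters and ion channels held 17 of 351 measured members (4.84%), from 672 on the array, on the T cell side and 8 (2.28%) on the B cell side, around a median of 0.02 on the log2 scale. All measured genes had 2.52% and 1.84%, so the B cell share was near the background. Kcnn4, the calcium-activated potassium channel that sustains calcium entry in T cells, was at 6670, 766 and 125 (8.71-fold higher). P2rx7, the ATP-gated channel, was at 2100, 188 and 61.3 (11.2-fold higher), although its measured probe sets ran from -0.69 to 3.48. Ryr1, a calcium release channel, was at 103, 1019 and 117 (9.85-fold lower), and Hvcn1, the proton channel that supports the oxidase in B cells, at 1600, 8210 and 244 (5.13-fold lower). Kcnk5, a background potassium channel, was at 95.4, 667 and 437 (6.99-fold lower, and under 4-fold with the higher detection level), and Mcoln2, an endolysosomal channel, 5.06-fold lower.

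Of 37 measured ion pumps and flippases, 5 (13.5%) were higher in T cells by 4-fold or more and 0 lower, against 2.52% and 1.84% of all measured genes. The list as a whole was near 0, with 27 of the 37 within 2-fold, 2 lower at 2-fold and a median of 0.02. Atp11a, a lipid flippase, was at 994, 61.9 and 811 (at least 10.5-fold) and Atp10a at 914, 69.0 and 243 (at least 9.63-fold). The probe sets of Atp10a ran from 1.53 to 3.27, and it was below 4-fold with the higher detection level and without the probe sets named _x_at or _s_at, which can share sequence with other transcripts (1.90 and 1.53 on the log2 scale). Of the beta chains of the sodium pump, Atp1b3 was at 15463, 3818 and 4402 (4.05-fold), just past 4-fold, and Atp1b1 at 3800, 871 and 2756 (4.36-fold). Solute carriers were near the background, with 5 of 202 higher and 3 lower. Slco3a1, an organic anion carrier, was at least 8.07-fold and Slc16a5, of the monocarboxylate family, at least 5.58-fold higher, both under 4-fold with the higher detection level. Slc25a24, a mitochondrial ATP-magnesium carrier, was at 1559, 288 and 1450 (5.41-fold higher, with a further probe set at 1.23 and a median of the sets of 1.83). Slc25a53, of the same mitochondrial family, was at 449, 2470 and 114 (5.51-fold lower), with a probe set at -0.12. The ABC transporters Abcb9 (at least 5.95-fold, its probe sets running from 1.47 to 2.57), Abcb1b (at least 4.78-fold) and Abcg2 (4.11-fold) were higher in T cells. Slc25a5, Slc44a2, Clic1 and Atp6v1f were within 25%, for example Slc25a5 at 13324 and 14834.

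The ES cell array, which entered the choice of genes only through the detection level, gave a level outside the lymphoid lineage. A gene counted as different had to be low in T or B cells beside the other. The shares below therefore describe these sets, and their difference from all measured genes was not tested. Of the 284 genes higher in T cells, 118 (41.5%) were at or below the detection level in ES cells, and of the 207 lower genes 99 (47.8%), against 1874 of all 11274 measured genes (16.6%). In 58 of the 284 the ES cell signal was above or within 2-fold of that in T cells, and in 26 it was above; of the 207, these counts against B cells were 25 and 10. Tet1, which oxidises methylated cytosine, was at 550 in T cells, 83.4 in B cells and 6810 in ES cells, and Socs2, a brake on cytokine signals, at 730, 89.9 and 6497. Abcg2, a pump that marks stem cells, was at 568, 138 and 2201. By contrast Lat, Fyb, Cd3d and Prkcq on the T cell side, and Cd79b, Btk and Srpk3 on the B cell side, had ES cell signals of 156 or lower.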

How the data were processed

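Messenger RNA was measured on 1 Affymetrix array each for splenic CD4 T cells, splenic B220 B cells and ES cells. The authors deposited 1 intensity per probe set and array, linear and made with Affymetrix Expression Console per the submitters' processing notes; its version, the summarization method and the scaling target were not given in the sources used here. After trimming 2%, the means of the arrays were nearly equal (497.67, 497.75 and 497.32), so a difference in total mRNA per cell cannot be seen. Of 45037 probe sets, 34945 had 1 gene symbol in GEO's platform annotation, 932 several and 9160 none; 34741 were found by Entrez ID in RefSeq's GRCm38.p6 table, and 0 symbols changed.

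Of a gene's probe sets, the one brightest on average over the T and B cell arrays stood for it. Values below the median of all values (95) were raised to it and log2 was taken (python 3.11.15, numpy 2.4.6, pandas 2.3.3). A gene counted as different at 4-fold with the brighter array above that level. The counting was tested on simulated data that held only changes well past 4-fold in genes bright in B cells. That test therefore does not cover calls near 4-fold or dim genes. With 1 array a group no test was run, and the number of arrays limits the precision. A signal depends on the probe, so genes were not compared with each other in level. The members, 44 gene lists and 28 pairs were chosen with earlier results of these data known. Chosen for naming were, for each class and direction, up to 10 different genes with the greatest log2 difference, and up to 4 bright genes within 25%. With the pair members on the array, these make the 161 named genes of the checks below, and not all of them appear in the text. Markers were named too, and further members of a list were named after their values were seen. Immunoglobulin and T cell receptor segments were not named. Promoters came from RefSeq's GRCm38.p6 table of 32851 windows. Alternatives changed the scaling, the detection level, the probe set rule and the fold.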

Additional observations from a re-analysis of the deposited data

Results flagged for a closer look

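Probe sets without a single gene name were kept out of the counts, and some of them differed between the lymphocyte arrays. Of 3612 measured probe sets with no listed gene, 100 (2.77%) were higher in T cells by 4-fold or more and 64 (1.77%) lower by as much. These shares were near the 2.52% and 1.84% of all measured genes. The greatest differences were those of a probe set with signals of 9873 in T cells, 80.3 in B cells and 7.6 in ES cells (at least 104-fold higher), and of one with 143, 6111 and 89.9 (42.7-fold lower). Of 617 measured probe sets with several gene symbols, 6 (0.97%) were higher in T cells by 4-fold or more and 12 (1.95%) lower by as much. The first share was below that of all measured genes and the second near it. No control array gives the level of such differences without a difference in cell type.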

How the results depend on the processing

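No paired analysis was possible because each cell type has 1 array, and for the same reason no replicate could be left out. Across scalings the median log2 difference of all measured genes moved between -0.07 and 0.02. Reversal was looked for in those of the 161 named genes that were at least 4-fold apart, and 0 of them changed sign. The rule that every probe set had to pass could not show a reversal, since it sets a gene with opposed probe sets to 0. Of the 120 named genes that were at least 4-fold apart, 84 stayed so under every scaling, detection level and probe set rule, and 103 under all but the probe set rules. Transcription factors, receptors and kinases that missed 4-fold when every probe set had to pass included Ebf1, Ciita, Id2, Rora, Smad7, Tcf4, Pax5, Pou2f2, Cd247, Fcrla, Zap70, Camk4 and Stk39; of the other classes, St8sia1, Nt5e, Trim7, Themis, Pik3ap1, Ptpn14, Abcb9, Atp10a, Atp8b4, P2rx7, Slc12a7, Slc25a24, Slc25a53, Socs2 and Hs3st3b1 did. Nr4a3 missed it at the higher detection level and Tox2 without probe sets named _x_at or _s_at. When the 65th percentile was the detection level, 169 genes were higher in T cells, with 31 receptors, 11 enzymes and 10 transporters among them, since a higher level leaves out dim genes and lowers bounds. Requiring 4-fold in every probe set left 183 higher genes, 11 enzymes and 9 transporters, and 8 transcription factors lower. With 16 added to each signal in place of raising low values, 36 enzymes were higher. The brighter array still had to be above the detection level there. At 2-fold, 1007 genes were higher and 712 lower. By class, those counts were 39 and 38 for transcription factors, 123 and 48 for receptors, 28 and 32 for kinases, 35 and 22 for adaptors and phosphatases, 100 and 65 for enzymes, and 54 and 29 for transporters. At 8-fold, 116 genes were higher and 87 lower; 27 receptors, 10 adaptors, 6 enzymes and 5 transporters were higher, and 5 kinases, 5 adaptors, 9 enzymes, 1 transporter and 3 MHC class II genes lower. Signals near the detection level limit the folds of dim genes to bounds.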

Other observations

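Genes outside the lists made up 156 of the 284 genes higher in T cells and 114 of the 207 lower ones. Those named here were chosen after their values were seen, and give values only. Of the Ms4a family of tetraspanning membrane proteins, Ms4a4b had signals of 28496 in T cells, 1275 in B cells and 4.6 in ES cells (22.3-fold higher in T cells) and Ms4a6b was 6.29-fold higher, while Ms4a1 (CD20) was at 2202, 32919 and 79.5 (14.9-fold lower) and Ms4a4c 5.78-fold lower. Izumo1r (folate receptor 4), known from regulatory T cells, was at 3339, 54.6 and 60.5 (at least 35.1-fold higher). The cytokine Ifng was at 1205, 133 and 28.5 (9.06-fold higher) and Il21 at 788, 11 and 1.2 (at least 8.30-fold). Igfbp4, a binder of insulin-like growth factors, was at 8074, 174 and 1346 (46.5-fold), and S100a4 at 5938, 143 and 5309 (41.5-fold), so that its ES cell signal was close to that in T cells.

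Further genes chosen in the same way are given singly. Dennd5b, an exchange factor of Rab proteins, was at 95.2, 2764 and 284 (29.0-fold lower in T cells), and Rab30 at 95.7, 1453 and 16.4 (15.2-fold lower). Swap70, an actin-binding protein of B cells, was at 873, 9271 and 618 (10.6-fold lower), and the class I myosins Myo1e and Myo1c were 6.89-fold and 5.50-fold lower. Snx8, a sorting nexin, was 10.5-fold lower. Actn1, an actin cross-linker, was at 7818, 789 and 7223 (9.91-fold higher).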
